A study of Mus musculus with 17 samples.

Results

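The cyclins, cyclin-dependent kinase (CDK) and CDK inhibitors described here were 10 genes, followed in R1/E mouse embryonic stem cells while these left self-renewal under retinoic acid (RA). They were the D-type cyclins *Ccnd1*, *Ccnd2* and *Ccnd3*, the E-type cyclins *Ccne1* and *Ccne2*, the mitotic cyclins *Ccna2* and *Ccnb1*, the kinase *Cdk6*, and the inhibitors *Cdkn1b* and *Cdkn2c*. They were chosen by name, with earlier results of these data known, from the 54532 genes of the deposited table. Each of the 10 names matched 1 gene, and all 10 passed the filter on low values (TPM of at least 1 in at least 2 libraries). Wild-type cells and cells with a CRISPR/Cas9 knockout of *Usb1*, which encodes a nuclease acting on the 3′ end of U6 snRNA, were compared without RA (day 0) and after 1 and 3 days of RA. There were 2 wild-type libraries at day 0 and 3 libraries in each of the other 5 groups, 17 in all, described by the authors as biological replicates of bulk RNA. The knockout libraries came from the single line KO-1, so that the effect of the clone and that of the knockout cannot be told apart. The design asks whether cells without *Usb1* answer to RA as wild-type cells do.

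D-type cyclins bind CDK4 and CDK6, and these kinases phosphorylate the retinoblastoma (RB) pocket proteins, which frees E2F transcription factors to turn on genes of DNA replication. Cyclin E with CDK2 acts at the entry into S phase, cyclin A2 through S phase and G2, and cyclin B1 with CDK1 at entry into mitosis. p27 (*Cdkn1b*) binds cyclin-CDK complexes, mostly those of CDK2, and p18 (*Cdkn2c*) binds CDK4 and CDK6 and keeps D-type cyclins off them. Mouse embryonic stem cells are known for fast cycles with a short G1 phase and abundant cyclin E, and the G1 phase lengthens when they differentiate.

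Values are TPM, a measure of transcripts scaled by gene length and by the total of the library. Reads recovered from TPM were whole numbers with the length of all annotated exons of a gene together. Levels compared between genes, such as their order and their shares of a sum, therefore depend on that length. At day 0 the wild-type libraries had 7626 and 8002 reads for *Ccnd3* (8775 exon bases), and 4700 and 4181 reads for *Ccne1* (2662 exon bases). Differences are on the log2(TPM + 1) scale, from limma fitted to 21871 genes, with p-values adjusted by the Benjamini-Hochberg method over all of these genes. A gene is said to rise, fall, or be higher or lower where its adjusted p was under 0.05. Statements on libraries, means or summed TPM describe values only. Day 3 was not tested against day 1 within a genotype. The share of all genes that did so is given as the background of each comparison.

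The libraries held 15404379 to 17300186 reads on genes, recovered from TPM and gene length. *Usb1* itself was lower but not absent in the knockout libraries, with a mean TPM of 16.2 ± 1.47 (SD, n = 3) against 38.5 ± 1.99 (SD, n = 2) in wild-type cells at day 0, and the genotypes did not overlap in its level on any day. Wild-type replicate 1 at day 0 stood apart: 239 genes had 1 read in it, against 1224 to 2467 genes in the other libraries, and it correlated with its only partner at r = 0.934 against 0.968 to 0.979 for pairs within the other groups. Comparisons of the 10 genes with wild-type cells at day 0 are therefore also given without it where this changes a result. For the lists of other cell cycle genes this was done in part only. Their counts against wild-type cells at day 0 use both libraries unless stated, and several of them changed without replicate 1. The summed TPM of 8 embryonic stem cell markers was 9414 to 10253 at day 0, and it was 1026 to 1259 in wild-type and 1411 to 1771 in knockout libraries at day 3. Of 7 fibroblast markers, *Dcn*, *Lum* and *Postn* were at 0 in every library of day 0 and day 1, and the 7 summed to 4.65 to 9.01 TPM on those days and 44.5 to 80.3 at day 3. Of 6 neural progenitor markers, *Nes* alone had a higher mean TPM by over 1 at day 3 than at day 0 (from 6.58 to 87.3 in wild-type and from 8.51 to 111.8 in knockout cells), *Sox1* had a lower one (from 9.65 to 1.56 and from 13.5 to 3.42), and *Pax6*, *Fabp7*, *Hes5* and *Pax3* had means under 1 on both days. The 6 summed to 14.3 to 24.1 TPM at day 0 and 87.6 to 129.7 at day 3. In bulk RNA, fewer cells of a type and less RNA per cell cannot be told apart.

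Sequence upstream of the transcription start was available here for 6 of the 10 genes, from RefSeq (GRCm38.p6). The 250 bases before each start were searched on both strands for the E2F motif (TTTCCCGC, TTTGGCGC, TTTCGCGC or TTTGCCGC), the CHR element (TTTGAA or TTCGAA) and CCAAT, which occur in 1.86%, 17.1% and 33.8% of the 32851 promoters of that table. The first 2 were not found in any of the 6 genes in these windows. CCAAT was found in *Ccnb1* at 99 and 67 bases before the start, in *Cdkn1b* at 161 and 35 bases before it, and at one start of *Ccnd3* at 108 bases before it. *Ccnb1* and *Cdkn1b*, which went opposite ways under RA, are shown with CCAAT in capitals, on the minus strand of chr13:100786571-100786736 for *Ccnb1*, limited to the bases outside the GENCODE gene, and on the plus strand of chr6:134920151-134920400 for *Cdkn1b*. The *Ccnb1* stretch therefore holds only the motif at 99 bases, since the one at 67 bases lies within the GENCODE gene, whose start is upstream of the RefSeq start, and the *Cdkn1b* stretch holds both of its motifs.
Ccnb1: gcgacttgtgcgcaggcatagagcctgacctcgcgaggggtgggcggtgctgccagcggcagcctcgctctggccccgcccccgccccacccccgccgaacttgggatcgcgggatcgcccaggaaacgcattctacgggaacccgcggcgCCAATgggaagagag
Cdkn1b: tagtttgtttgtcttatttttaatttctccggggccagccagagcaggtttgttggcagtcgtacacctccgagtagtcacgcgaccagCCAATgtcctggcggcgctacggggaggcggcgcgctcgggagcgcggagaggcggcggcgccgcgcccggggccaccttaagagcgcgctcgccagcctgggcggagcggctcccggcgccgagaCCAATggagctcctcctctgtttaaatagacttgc

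At day 0 in wild-type cells the highest TPM of the 10 genes was that of *Ccne1* at a mean of 362 ± 10.6 (SD, n = 2), followed by *Ccnb1* at 297 ± 3.78 (SD, n = 2). *Ccnd3* and *Ccna2* came next with the same mean of 193.9 and overlapping libraries, then *Ccnd1*, *Cdkn1b*, *Ccne2*, *Cdk6*, *Ccnd2* and *Cdkn2c*, each separate from its neighbour in the order. By day 3 the order had changed, with *Ccnb1*, *Ccna2* and *Ccne1* highest in both genotypes, and *Ccnd1* ninth of 10 in wild-type cells, where its libraries overlapped those of *Cdkn2c*. In knockout cells at day 3 *Ccnd1* was eighth, with libraries that overlapped those of *Ccne2*, and the ranges of *Ccnd2* and *Cdkn1b* and those of *Cdkn1b* and *Ccnd3* overlapped too. Over the 6 group means the widest ranges on the log2 scale were those of *Ccnd1* (3.90), *Ccnd2* (3.26), *Cdkn2c* (2.49) and *Ccnd3* (2.26), and the narrowest was that of *Ccne2* (0.47).

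**Figure D1:**
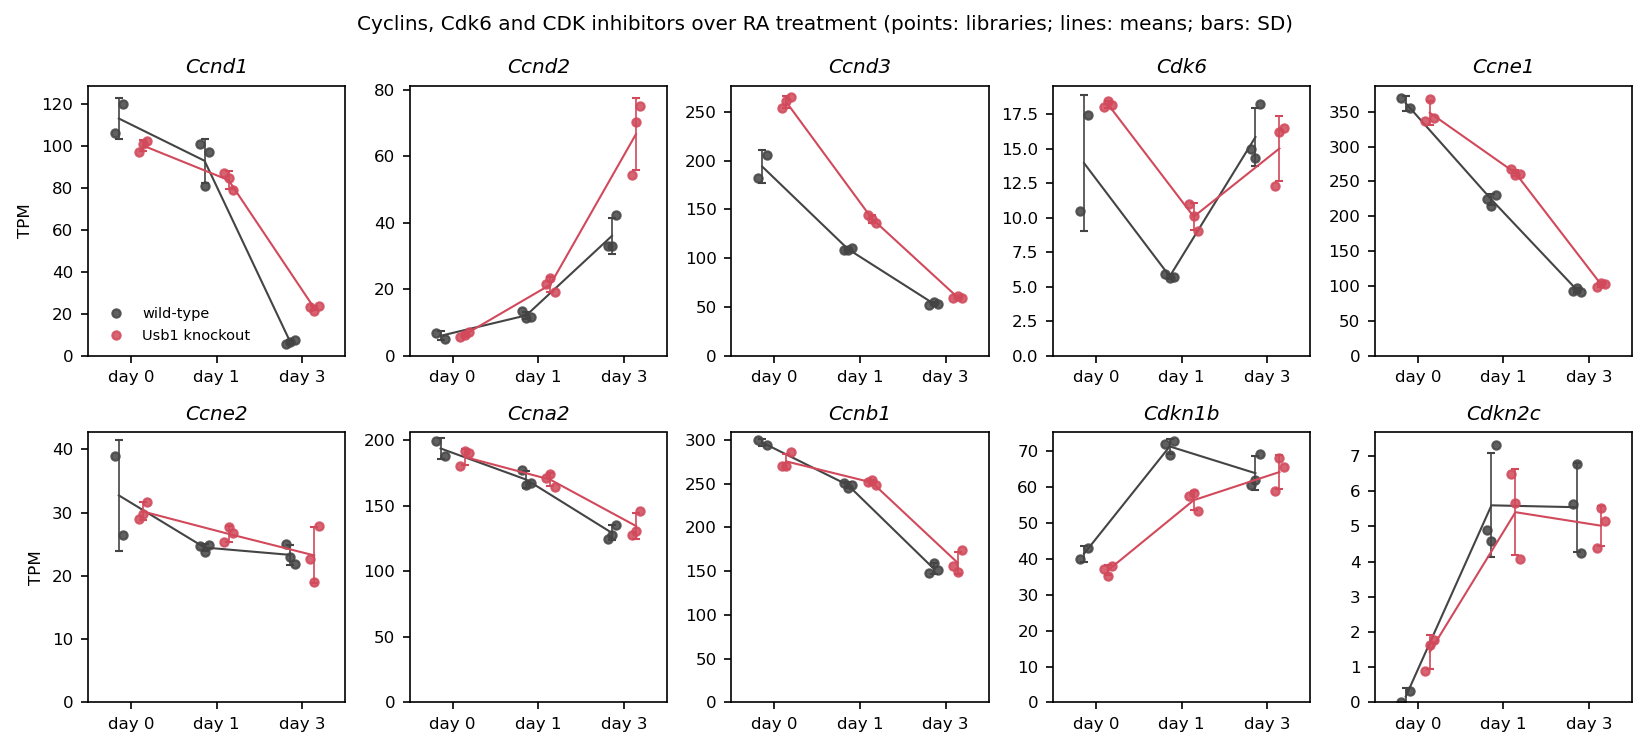
TPM (linear axis from 0) of the 10 genes at day 0, 1 and 3 of RA. Points are libraries, lines join group means and bars are SD, in grey for wild-type and red for *Usb1* knockout cells. *Ccnd1* fell to 5.55 to 7.73 in wild-type but to 21.7 to 23.7 in knockout libraries at day 3, and *Ccnd2* was higher in knockout libraries at day 1 and day 3.

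*Ccnd1*, the cyclin that couples growth factor signals to CDK4 and CDK6, lies on chromosome 7 (GRCm38, 144929931 to 144939925, minus strand). Its TPM in wild-type libraries was 106 and 120.1 at day 0, 101, 81.1 and 97.1 at day 1, and 5.55, 6.73 and 7.73 at day 3. In knockout libraries it was 97.5, 101 and 103 at day 0, 87.4, 85.1 and 79.2 at day 1, and 23.2, 21.7 and 23.7 at day 3. All day 3 libraries were below all earlier ones in both genotypes, and the 3 knockout libraries at day 3 lay above the 3 wild-type ones without overlap. At day 0 the knockout libraries lay below the wild-type ones, also without overlap. From day 0 to day 3 *Ccnd1* fell, with a log2 fold change of -3.90 (adjusted p = 1.45e-12, SE 0.11) in wild-type and -2.09 (adjusted p = 2.49e-10, SE 0.10) in knockout cells. At day 1 the changes from day 0 were -0.28 (adjusted p = 0.0607) and -0.26 (adjusted p = 0.0732), so that most of the fall came between day 1 and day 3. The day 1 values passed with libraries scaled to an equal median, at -0.49 (adjusted p = 0.00441) and -0.35 (adjusted p = 0.0216). At day 3 *Ccnd1* was higher in the knockout by 1.65 (adjusted p = 2.75e-07, SE 0.10), while the difference was -0.17 (95% interval -0.41 to 0.070, adjusted p = 0.351) at day 0 and -0.14 (95% interval -0.36 to 0.072, adjusted p = 0.388) at day 1. At day 3 the summed TPM of 7 primitive endoderm markers was 567 to 616 in wild-type and 295 to 336 in knockout libraries, with 6 of the 7 at a lower mean in the knockout, and 7 of the 8 stem cell markers had a higher mean there; their part in the *Ccnd1* result was not tested. Of the exon bases of *Ccnd1*, 23.4% are shared with *Oraov1* on the opposite strand, and the strand setting of the counting is not given in the sources used here. *Oraov1* stood at a mean TPM of 10.3 in wild-type and 9.71 in knockout cells at day 3.

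*Ccnd2*, the D-type cyclin on chromosome 6 (127125162 to 127152193, minus strand), moved the other way under RA. Wild-type libraries had a TPM of 6.99 and 5.09 at day 0, 13.5, 11.4 and 11.6 at day 1, and 33.1, 32.9 and 42.2 at day 3. Knockout libraries had 5.62, 6.23 and 7.27 at day 0, 21.5, 23.5 and 19.1 at day 1, and 54.4, 70.2 and 75.2 at day 3. The libraries of each later day lay above those of the earlier days in both genotypes. The knockout libraries lay above the wild-type ones at day 1 and at day 3 but overlapped them at day 0. The rise from day 0 was 0.91 (adjusted p = 0.000548, SE 0.17) at day 1 and 2.40 (adjusted p = 1.38e-08, SE 0.17) at day 3 in wild-type cells. In knockout cells it was 1.60 (adjusted p = 1.51e-06, SE 0.15) and 3.19 (adjusted p = 1.68e-10, SE 0.15). The knockout was higher by 0.76 (adjusted p = 0.00302, SE 0.15) at day 1 and 0.86 (adjusted p = 0.00227, SE 0.15) at day 3, and differed by 0.074 (95% interval -0.28 to 0.43, adjusted p = 0.821) at day 0. With only the libraries of the comparison in the fit the day 3 value had an adjusted p of 0.0675. The genotypes' responses from day 0 to day 3 differed by 0.79 (adjusted p = 0.0509), which did not pass the test, but did with the TPM minimum set to 5 (adjusted p = 0.0386), with a robust prior (0.0497), with voom (0.0481), and without wild-type replicate 2 at day 0 (0.0136), wild-type replicate 3 at day 3 (0.0327) or knockout replicate 1 at day 3 (0.0212).

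*Ccnd3*, on chromosome 17 (47505051 to 47599691, plus strand), was the main D-type cyclin mRNA of the untreated cells. The TPM of wild-type libraries was 182 and 206 at day 0, 109, 109 and 111 at day 1, and 52.5, 55.0 and 53.1 at day 3. The level in knockout libraries was 254, 261 and 265 at day 0, 145, 141 and 137 at day 1, and 59.0, 61.1 and 59.8 at day 3. The libraries of each later day lay below those of the earlier days in both genotypes, and on every day the knockout libraries lay above the wild-type ones. The fall from day 0 to day 3 was -1.84 (adjusted p = 1.51e-12, SE 0.053) in wild-type and -2.10 (adjusted p = 1.02e-13, SE 0.047) in knockout cells, and the fall to day 1 was -0.82 (adjusted p = 3.44e-08) and -0.88 (adjusted p = 5.68e-09). The knockout was higher by 0.42 (adjusted p = 0.000224, SE 0.053) at day 0 and 0.36 (adjusted p = 0.000165, SE 0.047) at day 1. At day 3 the difference was 0.16 (95% interval 0.060 to 0.26, adjusted p = 0.0550), which did not pass but did with quantile normalization, at 0.18 (adjusted p = 0.0398). Without wild-type replicate 1 the day 0 difference was 0.34 (adjusted p = 0.00401), and with the day 0 libraries alone in the fit its adjusted p was 0.0765.

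The summed TPM of the 3 D-type cyclins fell from 313 ± 25.3 (SD, n = 2) at day 0 to 215 ± 11.7 (SD, n = 3) at day 1 and 96.3 ± 6.11 (SD, n = 3) at day 3 in wild-type cells. In knockout cells it was 367 ± 9.20, 246 ± 9.69 and 149 ± 11.5 (SD, n = 3 each). The make-up of this sum changed as well. *Ccnd3* made up 61.6% to 62.2% of it in wild-type and 70.7% to 71.1% in knockout libraries at day 0, and *Ccnd2* 1.54% to 2.37% and 1.57% to 1.94%. At day 3 *Ccnd1* was 6.09% to 7.51% of the sum in wild-type and 14.2% to 16.95% in knockout libraries, and *Ccnd2* was 34.8% to 41.0% and 39.9% to 47.4%. *Ccnd3* was then 51.5% to 58.1% in wild-type and 37.7% to 43.2% in knockout libraries, so that *Ccnd2* had the largest mean share in the knockout and *Ccnd3* in the wild type. These shares are a description; 3 libraries against 3 cannot give an exact two-sided permutation p under 0.10.

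**Figure D2:**
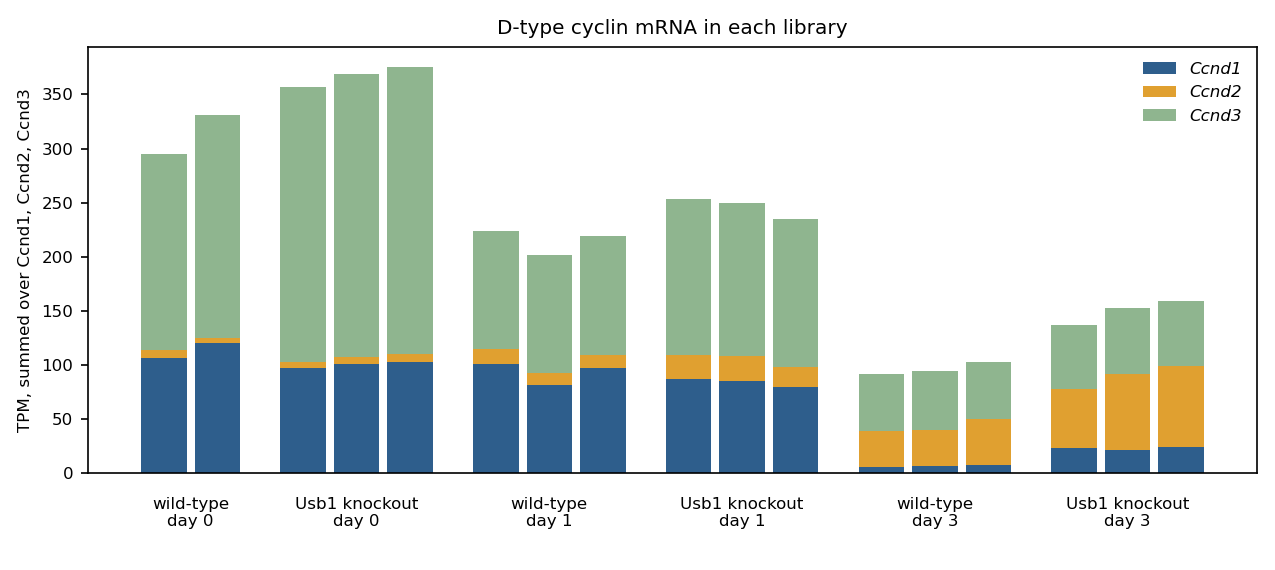
TPM (linear axis from 0) of *Ccnd1* (blue), *Ccnd2* (yellow) and *Ccnd3* (green), stacked, with 1 bar for each of the 17 libraries by genotype and day. The whole bar falls over RA treatment, from a mean of 313 to 96.3 in wild-type and from 367 to 149 in knockout cells, while the yellow part grows.

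*Cdk6*, a kinase partner of the D-type cyclins (chromosome 5, 3341485 to 3531008, plus strand), dipped at day 1. Its TPM in wild-type libraries was 10.5 and 17.4 at day 0, 5.95, 5.65 and 5.68 at day 1, and 15.0, 14.3 and 18.2 at day 3. In knockout libraries it was 18.0, 18.5 and 18.2 at day 0, 11.02, 10.2 and 9.08 at day 1, and 12.3, 16.2 and 16.5 at day 3. The day 1 libraries were the lowest in both genotypes, and at day 0 and day 1 the knockout libraries were above the wild-type ones without overlap. From day 0 to day 1 *Cdk6* fell, with a log2 fold change of -1.11 (adjusted p = 0.000184, SE 0.18) in wild-type and -0.80 (adjusted p = 0.00147, SE 0.16) in knockout cells. At day 1 it was higher in the knockout by 0.71 (adjusted p = 0.00705, SE 0.16), and the difference was 0.40 (95% interval 0.024 to 0.78, adjusted p = 0.158) at day 0 and -0.077 (95% interval -0.41 to 0.26, adjusted p = 0.882) at day 3. The wild-type replicates at day 0 lay far apart (10.5 in replicate 1 and 17.4 in replicate 2). The day 0 difference was 0.059 (adjusted p = 0.896) without replicate 1 and 0.74 (adjusted p = 0.00697) without replicate 2, and it passed with scaling to an equal median, at 0.52 (adjusted p = 0.0319), and with voom, at 0.51 (adjusted p = 0.0208). Without replicate 1 the fall to day 1 in wild-type cells was -1.45 (adjusted p = 2.38e-05), and the change from day 0 to day 3 turned from 0.20 (adjusted p = 0.362) to -0.14 (adjusted p = 0.538). Without replicate 2 that change was 0.55 (adjusted p = 0.0134). In knockout cells the change from day 0 to day 3 was -0.27 (adjusted p = 0.168), and it passed with quantile normalization, at -0.52 (adjusted p = 0.00441), with scaling to an equal median, at -0.57 (adjusted p = 0.00160), and with voom, at -0.37 (adjusted p = 0.0147).

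*Ccne1*, the cyclin E of chromosome 7 (38097984 to 38107534, minus strand), had the highest mean TPM of the 10 at day 0. Wild-type libraries had a TPM of 369.6 and 355 at day 0, 226, 215 and 231 at day 1, and 92.9, 97.9 and 91.6 at day 3. Knockout libraries had 336, 368 and 341 at day 0, 267, 259 and 260.2 at day 1, and 98.6, 105 and 103 at day 3. The libraries of each later day lay below those of the earlier days in either genotype, and at day 1 and day 3 the knockout libraries lay above the wild-type ones. The fall from day 0 was -0.69 (adjusted p = 1.85e-07, SE 0.053) at day 1 and -1.93 (adjusted p = 9.21e-13, SE 0.053) at day 3 in wild-type cells, and -0.41 (adjusted p = 1.42e-05, SE 0.047) and -1.76 (adjusted p = 5.77e-13, SE 0.047) in knockout cells. *Ccne1* was higher in the knockout by 0.23 (adjusted p = 0.00508, SE 0.047) at day 1. The differences at day 0, -0.056 (95% interval -0.17 to 0.058, adjusted p = 0.530), and at day 3, 0.12 (95% interval 0.017 to 0.22, adjusted p = 0.172), did not pass.

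*Ccne2*, its paralogue on chromosome 4 (11191351 to 11204779, plus strand), was far below *Ccne1* in every group and had the narrowest range of the 10. The TPM of wild-type libraries was 38.9 and 26.5 at day 0, 24.7, 23.8 and 24.9 at day 1, and 25.1, 22.9 and 21.9 at day 3. The level in knockout libraries was 28.9, 29.8 and 31.7 at day 0, 25.4, 27.8 and 26.7 at day 1, and 22.7, 19.1 and 27.9 at day 3. The groups of both genotypes overlapped at day 0 and day 3. From day 0 to day 3 *Ccne2* fell, with a log2 fold change of -0.45 (adjusted p = 0.0195, SE 0.15) in wild-type and -0.38 (adjusted p = 0.0266, SE 0.13) in knockout cells. The wild-type value was -0.18 (adjusted p = 0.357) without replicate 1 of day 0 and -0.41 (adjusted p = 0.0575) without replicate 3 of day 3. The knockout value did not pass when replicate 2 or 3 of day 0, or replicate 1 or 2 of day 3, was left out (adjusted p = 0.0546, 0.0830, 0.0596 and 0.138). *Ccne1* made up 90.5% to 93.1% of the summed *Ccne1* and *Ccne2* TPM in wild-type libraries at day 0 and 78.7% to 81.0% at day 3, against 91.5% to 92.5% and 78.7% to 84.6% in knockout libraries. Of the exon bases of *Ccne2*, 17.4% are shared with *Ints8* on the opposite strand. The mean TPM of *Ints8* was 25.7 to 40.2 over the groups, against 23.2 to 32.7 for *Ccne2*. With the strand setting not known, its part in the *Ccne2* values was not tested.

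*Ccna2*, the cyclin of S phase and G2 (chromosome 3, 36564865 to 36572150, minus strand), had a range of 0.58 on the log2 scale over the group means. Its TPM in wild-type libraries was 199.7 and 188 at day 0, 177, 166 and 167 at day 1, and 125, 128 and 136 at day 3. In knockout libraries it was 180.2, 192 and 190.4 at day 0, 171, 174 and 164 at day 1, and 127, 131 and 146 at day 3. The genotypes overlapped on every day, and the day 3 libraries were below those of day 0 in both. The fall from day 0 to day 3 was -0.58 (adjusted p = 2.00e-06, SE 0.063) in wild-type and -0.48 (adjusted p = 4.69e-06, SE 0.057) in knockout cells, and at day 1 it was -0.19 (adjusted p = 0.0303) in wild-type cells, a value that became -0.14 (adjusted p = 0.202) without replicate 1 at day 0 and had an adjusted p of 0.0861 or 0.0798 without replicate 2 or 3 of day 1. Of the exon bases of *Ccna2*, 12.5% are shared with *Exosc9* on the opposite strand.

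*Ccnb1*, the cyclin of entry into mitosis (chromosome 13, 100778650 to 100786570, minus strand), had the second highest mean TPM of the 10 at day 0. Its group means ranged over 0.95 on the log2 scale. Wild-type libraries had a TPM of 299.7 and 294 at day 0, 251, 245 and 249 at day 1, and 148, 159.6 and 151 at day 3. Knockout libraries had 270.0, 271 and 286 at day 0, 252, 254 and 248 at day 1, and 156, 149 and 174 at day 3. The day 3 libraries were below all earlier ones in both genotypes, and at day 0 the knockout libraries were below the wild-type ones without overlap. The fall from day 0 was -0.26 (adjusted p = 0.00292, SE 0.058) at day 1 and -0.95 (adjusted p = 3.70e-09, SE 0.058) at day 3 in wild-type cells, and -0.79 (adjusted p = 8.11e-09, SE 0.052) at day 3 in knockout cells, where the day 1 value, -0.13 (adjusted p = 0.0771), did not pass. For *Ccna2* and *Ccnb1* the differences between the genotypes on the same day ranged from -0.11 to 0.059 and none passed, with 95% intervals that lay between -0.23 and 0.18. With libraries scaled to an equal median, *Ccna2* was higher in the knockout at day 1, at 0.24 (adjusted p = 0.0466). The pseudogene *Ccnb1-ps*, a near copy whose reads could be counted for either gene, had mean TPM of 2.55 to 6.18 over the groups.

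*Cdkn1b*, which encodes p27 (chromosome 6, 134920401 to 134925513, plus strand), rose at day 1. The TPM of wild-type libraries was 39.9 and 43.1 at day 0, 72.2, 69.1 and 72.9 at day 1, and 60.6, 61.9 and 69.3 at day 3. The level in knockout libraries was 37.3, 35.4 and 38.0 at day 0, 57.5, 58.3 and 53.4 at day 1, and 59.0, 68.1 and 65.7 at day 3. In both genotypes the libraries of day 1 and day 3 were above all those of day 0, and at day 1 the wild-type libraries were above the knockout ones without overlap. The rise from day 0 was 0.77 (adjusted p = 2.22e-06, SE 0.076) at day 1 and 0.61 (adjusted p = 7.43e-06, SE 0.076) at day 3 in wild-type cells, and 0.60 (adjusted p = 1.10e-05, SE 0.068) and 0.78 (adjusted p = 1.54e-07, SE 0.068) in knockout cells. At day 1 *Cdkn1b* was lower in the knockout, with a log2 fold change of -0.34 (adjusted p = 0.00402, SE 0.068). This call depended on the scaling: with libraries scaled to an equal median it was -0.096 (adjusted p = 0.277). At day 0 the difference was -0.17 (95% interval -0.33 to -0.0026, adjusted p = 0.175). It did not pass, though the knockout libraries were below the wild-type ones without overlap. At day 3 the difference was 0.0070 (95% interval -0.14 to 0.15, adjusted p = 0.999).

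*Cdkn2c*, which encodes p18 (chromosome 4, 109660876 to 109667189, minus strand), was the least abundant of the 10 at day 0. Its TPM in wild-type libraries was 0 and 0.336 at day 0, 4.91, 4.59 and 7.30 at day 1, and 5.63, 6.77 and 4.23 at day 3. In knockout libraries it was 0.887, 1.64 and 1.78 at day 0, 6.47, 5.66 and 4.07 at day 1, and 4.398, 5.51 and 5.15 at day 3. The 0 and the 0.336 of wild-type cells at day 0 were 0 and 4 reads, and knockout libraries at day 0 had 11 to 22 reads, against 49 to 89 reads in the libraries of day 1 and day 3. All later libraries were above those of day 0, and the genotypes overlapped at day 1 and day 3. The rise from day 0 to day 3 on the log2(TPM + 1) scale was 2.48 (adjusted p = 1.02e-06, SE 0.25) in wild-type and 1.32 (adjusted p = 0.000173, SE 0.23) in knockout cells, and to day 1 it was 2.49 (adjusted p = 3.26e-06) and 1.40 (adjusted p = 0.000321). At day 0 *Cdkn2c* was higher in the knockout by 1.05 (adjusted p = 0.0170, SE 0.25), but this was 0.84 (adjusted p = 0.140) without wild-type replicate 1, the library with no read, and had an adjusted p of 0.0566 or 0.0600 without knockout replicate 2 or 3. With so few reads the size of these changes depends on the pseudocount.

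Set side by side, the RA responses divided most of the 10 genes into a rising and a falling group. At day 3 against day 0, 3 genes rose (*Ccnd2*, *Cdkn1b* and *Cdkn2c*) and 6 fell in wild-type cells, against a background of 29.6% of all genes that rose and 22.5% that fell. In knockout cells the same 3 rose and the same 6 fell, against 29.7% and 21.8%. *Cdk6* passed in neither, with the exceptions under other settings given with its values. At day 1, 3 rose and 5 fell in wild-type cells, where the background was 25.5% and 12.5%, and 3 rose and 3 fell in knockout cells, where it was 16.0% and 11.7%. The falling genes were a larger share of the 10 than of all genes in each of these comparisons, and at day 3 the rising genes were a similar share. The 10 genes were chosen with earlier results of these data known, so these shares are a description and carry no test. The median log2 fold change of the 10 genes at day 3 was -0.51 in wild-type and -0.43 in knockout cells, and that of all genes tested was 0.10 and 0.031. The 2 genotypes' responses are drawn from separate day 0 libraries.

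**Figure D3:**
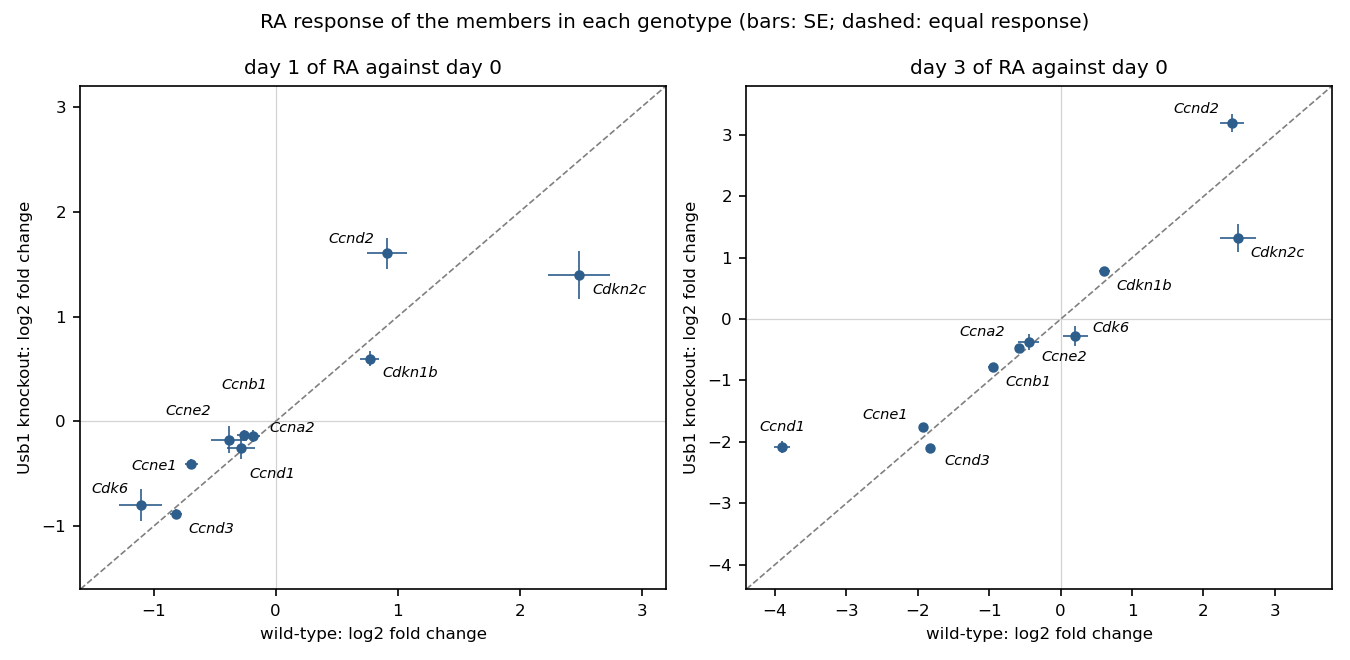
Log2 fold change on TPM + 1 of the 10 genes after 1 day (left) and 3 days (right) of RA against day 0, in wild-type cells (horizontal axis) and *Usb1* knockout cells (vertical axis). Bars are SE and the dashed line marks equal responses. At day 3 *Ccnd1* lies farthest from the line, at -3.90 in wild-type and -2.09 in knockout cells.

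Counted by day, the knockout differed from the wild type in 2 of the 10 genes at day 0, both higher (*Ccnd3* and *Cdkn2c*), while 5.08% of all genes were higher and 6.80% lower; without wild-type replicate 1 it was 1 gene. At day 1, 4 genes were higher (*Ccnd2*, *Ccnd3*, *Ccne1* and *Cdk6*) and 1 was lower (*Cdkn1b*), while 3.74% of all genes were higher and 13.6% lower. The median log2 fold change of all genes in that comparison was -0.13, and 21.6% of the genes that passed were higher, a share that was 46.2% after quantile normalization and 62.8% after scaling to an equal median. The 4 higher genes were higher under both scalings. At day 1 the summed TPM of 6 RA response genes was 1133 to 1190 in wild-type and 575 to 617 in knockout libraries, with all 6 at a lower mean in the knockout, and that of the primitive endoderm markers was 82.0 to 84.0 and 21.4 to 24.6, with all 7 lower; their part in these differences was not tested. At day 3, 2 genes were higher (*Ccnd1* and *Ccnd2*) and none was lower, while 3.96% of all genes were higher and 3.56% lower.

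**Figure D4:**
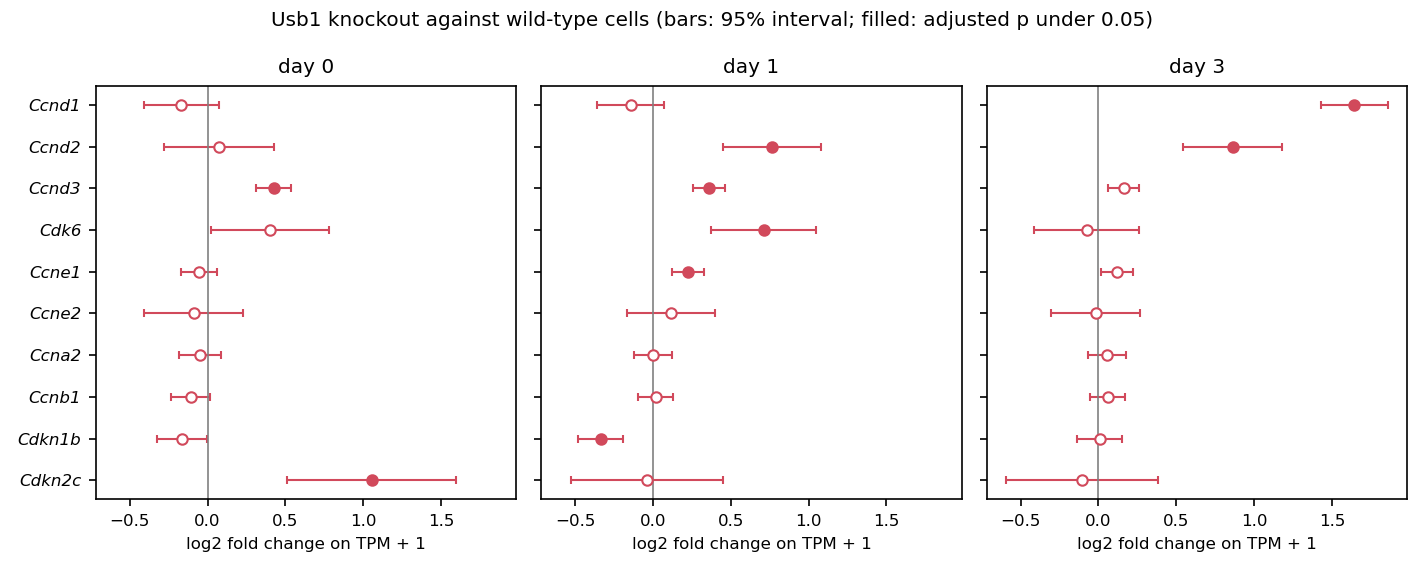
Log2 fold change on TPM + 1 of *Usb1* knockout against wild-type cells at day 0, 1 and 3 for the 10 genes. Bars are 95% intervals and filled points have an adjusted p under 0.05. *Ccnd3* is higher at day 0 (0.42) and day 1 (0.36), *Ccnd2* at day 1 (0.76) and day 3 (0.86), and *Ccnd1* at day 3 only (1.65).

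Whether the genotypes responded differently was tested as the difference of their responses, knockout minus wild type. From day 0 to day 1 none of the 10 genes passed in limma, 3 had an unadjusted p under 0.05, and under other settings up to 3 passed. *Ccne1* passed with the TPM minimum set to 5 (adjusted p = 0.0439), with quantile normalization (0.0295) and without knockout replicate 2 at day 0 (0.0442), and *Cdkn2c* with a pseudocount of 0.1 (0.0396) and with voom on recovered reads (0.0395). Without wild-type replicate 2 at day 0, *Ccnd2* (0.0264), *Ccne1* (0.0248) and *Cdkn2c* (0.0363) passed. The 3 with an unadjusted p under 0.05 were *Cdkn2c* at -1.09 (adjusted p = 0.114), *Ccnd2* at 0.69 (adjusted p = 0.124) and *Ccne1* at 0.28 (adjusted p = 0.0557). In that comparison 0.704% of all genes had a higher and 1.53% a lower response in the knockout. From day 0 to day 3 *Ccnd1* fell less in the knockout, with a difference of 1.81 (adjusted p = 1.81e-05, SE 0.15), and *Ccnd3* fell further, with a difference of -0.26 (adjusted p = 0.0440, SE 0.071), against 3.53% of all genes with a higher and 2.62% with a lower response. Without wild-type replicate 1 at day 0 the value of *Ccnd1* was 1.90 (adjusted p = 9.84e-05) and that of *Ccnd3* -0.17 (adjusted p = 0.186). From day 1 to day 3 the responses differed by 1.79 (adjusted p = 7.50e-06, SE 0.14) for *Ccnd1*, 0.34 (adjusted p = 0.0438, SE 0.096) for *Cdkn1b* and -0.79 (adjusted p = 0.0459, SE 0.22) for *Cdk6*, against 5.93% of all genes with a higher and 1.68% with a lower response. Both *Ccnd1* differences passed under each of the 11 alternatives and without any single library of the groups compared. The difference of *Ccnd3* was lost without any one of 10 of the 11 libraries of its comparison, the exception being wild-type replicate 2 at day 0, that of *Cdk6* without any one of the 12 libraries, and that of *Cdkn1b* without any one of 10 of the 12. The *Cdkn1b* difference was 0.23 (adjusted p = 0.109) with quantile normalization and 0.12 (adjusted p = 0.434) with scaling to an equal median.

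The rest of the cell cycle machinery was followed in 6 lists drawn up beside the 10 genes. Among 9 tested of the other cyclins and CDKs, 1 rose and 3 fell from day 0 to day 3 in either genotype, against 29.6% of all genes that rose and 22.5% that fell in wild-type and 29.7% and 21.8% in knockout cells, the background of each list that follows. In wild-type cells *Ccnf*, an F-box cyclin, fell with a log2 fold change of -0.78, *Cdk1*, the mitotic kinase, with -0.36 and *Ccnb2*, a B-type cyclin, with -0.34, and *Cdk7*, of the CDK-activating kinase, rose with 0.40. The median of this list was -0.063 in wild-type and 0.0063 in knockout cells. Between the genotypes on the same day 1 or 2 of the 9 passed, where all genes gave 5.08% higher and 6.80% lower at day 0, 3.74% and 13.6% at day 1, and 3.96% and 3.56% at day 3: *Ccna1* and *Mnat1* were higher in the knockout at day 0, *Cdk4* was higher and *Cdk2* lower at day 1, and *Mnat1* was higher at day 3. At day 0 a single gene of this list passed without wild-type replicate 1.

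The other CDK inhibitors had the largest median change of the 6 lists. All 5 passed from day 0 to day 3, with 4 higher and 1 lower in wild-type cells and 5 higher in knockout cells, and medians of 1.54 and 1.66. *Cdkn1a*, which encodes p21, rose from a mean TPM of 35.5 to 104.9 in wild-type and from 55.0 to 101.2 in knockout cells. *Cdkn2d*, which encodes p19, rose from 22.1 to 33.8 and from 23.0 to 34.9. *Cdkn2a* went from 3.66 to 128.7 and from 16.7 to 154.2, and *Cdkn2b*, which encodes p15, from 1.79 to 55.9 and from 2.21 to 66.3; wild-type replicate 1 at day 0 had no read for either of these. Between the genotypes 3, 1 and 1 of the 5 passed at day 0, 1 and 3. All genes gave 5.08% higher and 6.80% lower at day 0, 3.74% and 13.6% at day 1, and 3.96% and 3.56% at day 3. At day 0 *Cdkn1a* was higher in the knockout by 0.63 (adjusted p = 0.000972) and *Cdkn2a* by 2.62 (adjusted p = 0.00773). The *Cdkn2a* difference takes in wild-type replicate 1, which had no read for it, and its size without that library is not given here. *Cdkn1c*, which encodes p57, was the one of these 5 that passed with a lower level in the knockout on some days and a higher one on another. Its mean TPM was 104.3, 335.0 and 81.7 at day 0, 1 and 3 in wild-type cells and 42.7, 185.9 and 136.1 in knockout cells. It was lower in the knockout at day 0, -1.27 (adjusted p = 1.34e-05), and day 1, -0.85 (adjusted p = 7.96e-05), and higher at day 3, 0.73 (adjusted p = 0.000504). Its response to day 3 differed by 2.00 (adjusted p = 1.12e-05, SE 0.15) between the genotypes. That of *Cdkn1a* differed by -0.68 (adjusted p = 0.00675, SE 0.13), from a higher *Cdkn1a* level in the knockout at day 0.

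Of the 13 pocket proteins and E2F factors, 3 rose and 8 fell in wild-type and 4 rose and 8 fell in knockout cells from day 0 to day 3, with medians of -0.60 and -0.48. The 3 and 4 of 13 that rose were a share like that of all genes (29.6% and 29.7%), and the 8 that fell a larger one (22.5% and 21.8%). The lists too were chosen with earlier results known, so this is a description. In wild-type cells the largest changes were those of *E2f8* (-2.37), *E2f2* (-2.06), *Rbl2* (-1.27), a pocket protein, and *E2f4* (-1.19). Between the genotypes 3, 3 and 2 of the 13 passed at day 0, 1 and 3. The shares of all genes were 5.08% higher and 6.80% lower at day 0, 3.74% and 13.6% at day 1, and 3.96% and 3.56% at day 3. *Rb1*, *Rbl2* and *Tfdp2*, the last a partner of E2F factors, were lower in the knockout at day 0 and at day 1. Their log2 fold changes at day 1 were -0.67, -0.49 and -0.85. At day 3 *E2f3* and *E2f5* were higher in the knockout, with 0.25 (adjusted p = 0.0329) and 0.34 (adjusted p = 0.0398). At day 0 none of the 13 passed without wild-type replicate 1.

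Of 15 mitosis genes, 1 rose and 11 fell in wild-type and 1 rose and 12 fell in knockout cells from day 0 to day 3, with medians of -0.51 and -0.36. The largest changes in wild-type cells were those of *Mybl2* (-2.21), a transcription factor of S phase and G2 genes, *Bub1b* (-1.11), of the spindle checkpoint, *Nek2* (-1.08) and *Top2a* (-1.02). At day 0 *Aurka*, a spindle kinase, was higher in the knockout, with 0.24 (adjusted p = 0.0249), and *Bub1* lower, with -0.30 (adjusted p = 0.0381). Neither passed without wild-type replicate 1. At day 1 *Ttk* was lower, with -0.31 (adjusted p = 0.0214). At day 3 *Aurka* was lower in the knockout, with -0.41 (adjusted p = 0.000405). *Mad2l1* and *Bub1b* were higher that day, with 0.34 (adjusted p = 0.00430) and 0.18 (adjusted p = 0.0374). Of 5 CDK phosphatases and kinases, 1 rose and 3 fell in wild-type cells, where *Cdc25a*, which activates CDK2, changed by -0.80, *Cdc25b* by 0.44, *Cdc25c* by -0.34 and the inhibitory kinase *Wee1* by -0.32, and 1 rose and 4 fell in knockout cells. Of 10 genes of cyclin and inhibitor degradation, 3 rose and 6 fell in wild-type and 3 rose and 5 fell in knockout cells, led by *Fbxo5*, an inhibitor of the anaphase-promoting complex, at -1.25 and -1.01. The next in wild-type cells were *Fzr1* (-0.77), an activator of that complex, *Skp2* (-0.56), which targets p27, and *Cks2* (-0.47). Between the genotypes 2, 1 and 3 of the 15 mitosis genes passed at day 0, 1 and 3, as did 0, 0 and 1 of the 5 phosphatases and kinases and 0, 1 and 1 of the 10 degradation genes, to be read beside the shares of all genes given for these days. The medians of all genes tested in the day 3 comparisons were 0.10 and 0.031, as given above.

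**Figure D5:**
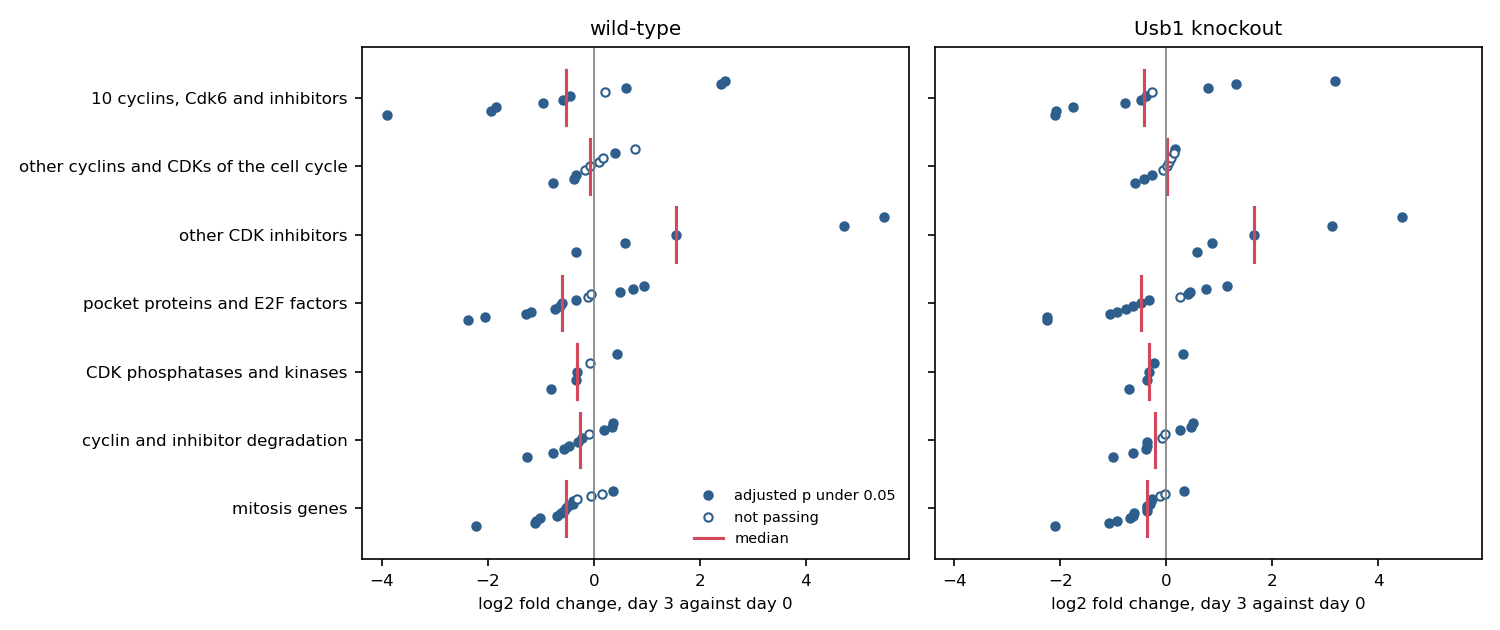
Log2 fold change on TPM + 1 from day 0 to day 3 of RA in wild-type (left) and *Usb1* knockout cells (right), for the 10 genes and 6 lists of cell cycle genes. Each point is a gene, filled where its adjusted p was under 0.05, and the red line is the median of the list. The median of the mitosis genes was -0.51 and -0.36, and that of the other CDK inhibitors 1.54 and 1.66.

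For the 4 genes of widest range, the genes with the most similar levels were sought by Pearson's r on the log2 scale over the 17 libraries, among genes whose group means ranged over at least 1 on that scale. They were *Sox2* (r = 0.987), *Rcor2* (0.986) and *Etv5* (0.986) for *Ccnd1*, *Sox9* (0.977), *Pde5a* (0.976) and *Igfbp4* (0.974) for *Ccnd2*, *Pcolce2* (0.993), *Pmm1* (0.992) and *Hpdl* (0.991) for *Ccnd3*, and *Pde6d* (0.962), *Arl4d* (0.953) and *Sertad3* (0.952) for *Cdkn2c*. The libraries share 3 days and 2 genotypes, so these values describe a likeness of profile and carry no test. *Sox2*, a pluripotency factor, had a mean TPM of 114.9 in wild-type and 222.9 in knockout cells at day 3.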

How the data were processed

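RNA-seq of R1/E mouse embryonic stem cells (wild-type and *Usb1* knockout, day 0, 1 and 3 of RA, 17 libraries) was made by the authors with NEBNext Ultra libraries. HISAT2 2.1.0, StringTie 1.3.6 and GRCm38.p6 are named in the submitters' processing notes. The authors deposited TPM per gene, and groups were taken from the sample titles. For differential expression the authors used DESeq2 on counts, which were not used here. Genes were matched by identifier to GENCODE M21 (GRCm38) for coordinates and exon lengths, and reads were recovered as TPM times exon length over a step specific to the library, with whole numbers (within 0.01) for 95.9% to 96.7% of genes above 0. Intervals and limits from reads cover counting error only.

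On log2(TPM + 1), limma 3.58.1 (R 4.3.3) was fitted to the 6 group means over all 17 libraries, with a variance trend, for genes at TPM of at least 1 in at least 2 libraries. An adjusted p (Benjamini-Hochberg) under 0.05 was the threshold. The script was tested on simulated data. Python 3.11.15 made tables and figures. The members and lists were chosen with earlier results of these data known. List genes were named by their 4 largest changes among those that passed, the profiles most similar to a gene by the 3 highest values of r, and *Usb1* and the marker lists as checks. The alternatives were another pseudocount, filters, scalings and variance models, a replicate block, a 2-fold minimum, fewer libraries, and voom on recovered reads.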

Additional observations from a re-analysis of the deposited data

Results flagged for a closer look

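The responses of 4 genes to RA differed between the genotypes by a test of the difference itself (limma, knockout minus wild type, p-values adjusted over 21871 genes). *Ccnd1* did so both from day 0 to day 3, by 1.81 (SE 0.15, adjusted p = 1.81e-05), and from day 1 to day 3, by 1.79 (SE 0.14, adjusted p = 7.50e-06). Its 3 knockout libraries at day 3 lay above all 3 wild-type libraries, at a mean TPM of 22.8 ± 1.07 (SD, n = 3) against 6.67 ± 1.09 (SD, n = 3).

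*Ccnd3* differed from day 0 to day 3 by -0.26 (SE 0.071, adjusted p = 0.0440), from a higher level in the knockout at day 0. *Cdk6* and *Cdkn1b* differed from day 1 to day 3 by -0.79 (SE 0.22, adjusted p = 0.0459) and 0.34 (SE 0.096, adjusted p = 0.0438), from a higher *Cdk6* and a lower *Cdkn1b* level in the knockout at day 1. These 3 were fragile. The adjusted p of *Ccnd3* was over the threshold without any one of 10 of the 11 libraries compared (0.0531 to 0.186, the highest without wild-type replicate 1 at day 0), that of *Cdk6* without any one of 12 (0.0561 to 0.103), and that of *Cdkn1b* without any one of 10 of 12 (0.0557 to 0.117). With replicate number as a block all 3 lost their call, with adjusted p-values of 0.0519 for *Ccnd3*, 0.0587 for *Cdk6* and 0.0591 for *Cdkn1b*. The *Cdkn1b* difference was 0.23 (adjusted p = 0.109) with quantile normalization and 0.12 (adjusted p = 0.434) with scaling to an equal median.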

How the results depend on the processing

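Of 46 calls among the 10 genes over the 10 comparisons, 36 kept their side of the threshold under every alternative other than the 2-fold change and without any single library, and none of the 46 changed sign. The other 10 were *Ccnd3* and *Cdkn2c* at day 0, *Cdkn1b* at day 1 and *Ccnd2* at day 3 between the genotypes, *Ccna2* at day 1 and *Ccne2* at day 3 in wild-type cells, *Ccne2* at day 3 in knockout cells, and the differences of responses of *Ccnd3*, *Cdk6* and *Cdkn1b*. Of the 54 values that did not pass, 17 did so under at least 1 alternative: *Cdk6* at day 0, *Ccna2* at day 1 and *Ccnd3* at day 3 between the genotypes; *Ccnd1* and *Ccne2* at day 1 and *Cdk6* at day 3 in wild-type cells; *Ccnd1*, *Ccna2* and *Ccnb1* at day 1 and *Cdk6* at day 3 in knockout cells; and the differences of responses of *Ccnd2*, *Ccne1* and *Cdkn2c* to day 1, of *Ccnd2*, *Cdk6* and *Cdkn2c* to day 3, and of *Ccnd3* between day 1 and day 3. The cause was not tested. A robust variance model moved no count by over 1.5 times. In this paragraph a day named with 1 genotype is against day 0. Counts are listed only where they differed from the main fit by over 1.5 times, or where either count was 0. Comparisons not named kept their counts within that range. In the main fit, genes called were 2598, 3789 and 1645 between the genotypes at day 0, 1 and 3. They were 488 (responses to day 1), 1345 (responses to day 3) and 1665 (responses between day 1 and day 3). With a pseudocount of 0.1, of the 10 genes, 1 (responses to day 1) passed. Without a filter, of the 10 genes, 1 (responses between day 1 and day 3) passed. With a filter at TPM of at least 5, of the 10 genes, 1 (responses to day 1) passed. With quantile normalization, of the 10 genes, 1 (knockout against wild type at day 0), 1 (responses to day 1) and 1 (responses to day 3) passed, and values that changed sign were *Cdkn2c* 0.17 (knockout against wild type at day 1), *Ccne2* -0.0076 (responses to day 3) and *Ccnd2* -0.060 (responses between day 1 and day 3). With scaling to an equal median, genes called were 302 (responses to day 1) and 1035 (responses between day 1 and day 3), and of the 10 genes, 1 (responses to day 3) passed, and values that changed sign were *Ccne1* 0.071, *Ccne2* 0.034, *Ccna2* 0.078 and *Ccnb1* 0.018 (knockout against wild type at day 0), *Ccnd1* 0.097 and *Cdkn2c* 0.16 (knockout against wild type at day 1), *Ccne2* 0.0017 (knockout against wild type at day 3), *Ccnd3* 0.049 (responses to day 1), *Ccne2* -0.033 and *Ccna2* -0.0015 (responses to day 3) and *Ccnd2* -0.11, *Ccna2* -0.17 and *Ccnb1* -0.18 (responses between day 1 and day 3). Without a variance trend, of the 10 genes, 1 (responses to day 3) and 1 (responses between day 1 and day 3) passed. With replicate number as a block, of the 10 genes, 1 (responses to day 3) and 1 (responses between day 1 and day 3) passed. With a 2-fold change required as well, genes called were 668 (knockout against wild type at day 0), 485 (knockout against wild type at day 1), 283 (knockout against wild type at day 3), 3033 (wild type, day 1), 5640 (wild type, day 3), 1519 (knockout, day 1), 4782 (knockout, day 3), 188 (responses to day 1), 529 (responses to day 3) and 493 (responses between day 1 and day 3), and of the 10 genes, 1 (knockout against wild type at day 0), 0 (knockout against wild type at day 1), 1 (knockout against wild type at day 3), 2 (wild type, day 1), 5 (wild type, day 3), 2 (knockout, day 1), 5 (knockout, day 3), 1 (responses to day 3) and 1 (responses between day 1 and day 3) passed. With the libraries of the comparison alone, genes called were 178 (knockout against wild type at day 0), 591 (knockout against wild type at day 3), 5235 (wild type, day 1) and 517 (responses to day 3), and of the 10 genes, 0 (knockout against wild type at day 0), 1 (knockout against wild type at day 3) and 1 (responses to day 3) passed. With limma's voom on recovered reads, of the 10 genes, 1 (responses to day 1) and 4 (responses to day 3) passed, and values that changed sign were *Ccne1* 0.015 and *Ccna2* 0.023 (knockout against wild type at day 0), *Cdkn2c* 0.054 (knockout against wild type at day 1) and *Ccnd2* -0.022, *Ccna2* -0.036 and *Ccnb1* -0.050 (responses between day 1 and day 3). Leaving out each library in turn, genes called ranged over 1199 to 5017 (knockout against wild type at day 0), 201 to 3231 (responses to day 1), 773 to 3781 (responses to day 3), 2075 to 3141 (knockout against wild type at day 1), 957 to 2377 (responses between day 1 and day 3) and 990 to 1465 (knockout against wild type at day 3), and of the 10 genes those passing ranged over 1 to 3 (knockout against wild type at day 0), 0 to 3 (responses to day 1), 1 to 5 (responses to day 3) and 1 to 2 (responses between day 1 and day 3). Values that changed sign ranged over *Ccnd2* -0.12 to 0.27 and *Ccne2* -0.36 to 0.18 (knockout against wild type at day 0), *Cdk6* -0.14 to 0.55 (wild type, day 3), *Ccnd1* -0.069 to 0.11, *Ccnd3* -0.15 to 0.023, *Ccne2* -0.064 to 0.47 and *Cdk6* -0.033 to 0.65 (responses to day 1), *Ccne2* -0.20 to 0.34 (responses to day 3), *Ccna2* -0.018 to 0.031 and *Cdkn2c* -0.16 to 0.14 (knockout against wild type at day 1), *Ccna2* -0.0027 to 0.094, *Ccnb1* -0.021 to 0.089 and *Cdkn2c* -0.24 to 0.066 (responses between day 1 and day 3) and *Ccne2* -0.15 to 0.11, *Ccna2* -0.0026 to 0.094, *Ccnb1* -0.0034 to 0.11, *Cdk6* -0.15 to 0.052, *Cdkn1b* -0.036 to 0.067 and *Cdkn2c* -0.26 to 0.027 (knockout against wild type at day 3). Replicate numbers showed no sign of pairing in the levels. Libraries of the same number deviated from their group means with a mean r of -0.0052 (-0.13 to 0.12 over 40 pairs), and 6 of the 17 libraries correlated best with their own number. With so few libraries in a group this cannot exclude pairing, and the sample titles do not tell whether repeats were handled together. The block lost 3 calls and added 1. Quantile normalization and scaling to an equal median moved the share of higher genes among those called from 42.7% to 51.4% and 63.2% (knockout against wild type at day 0), from 67.0% to 52.9% and 47.9% (wild type, day 1), from 56.8% to 48.6% and 46.2% (wild type, day 3), from 57.8% to 54.5% and 44.2% (knockout, day 1), from 57.6% to 48.7% and 40.3% (knockout, day 3), from 31.6% to 47.5% and 44.0% (responses to day 1), from 57.3% to 54.0% and 42.6% (responses to day 3) and from 78.0% to 58.1% and 48.7% (responses between day 1 and day 3), and scaling to an equal median brought the median log2 fold change in wild-type cells at day 1 from 0.17 to 0.015. Depth limits *Cdkn2c* most, with 0 to 89 reads in a library.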
